A study of Mus musculus with 16 samples.

Results

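The comparison described here is that of 4 hearts from mice with a heart-conditional knockout of Tfr1 with 4 hearts from wild-type mice, all taken at postnatal day 10 and each measured on its own Affymetrix mouse array. These 8 arrays were chosen by their titles from the 16 arrays of the series; the other 8 are the same genotypes at postnatal day 5. All animals were on a mixed 129 and C57BL6 background and stayed with their mother until collection, and whole hearts were snap frozen before total RNA was extracted, labelled with biotin and hybridised. The labels name neither the Cre driver nor the floxed allele, and give no sex, litter, hybridisation batch or scan date. A whole heart holds cardiomyocytes, endothelial cells, fibroblasts, smooth muscle and blood, so fewer cells of a type and less RNA per cell cannot be told apart here. Replicates were numbered in accession order, and a shared number was not used as a pairing. The titles carry animal tags, 228, 229, 265 and 290 in knockout and 230, 233, 268 and 291 in wild-type replicates 1 to 4. Replicates 3 and 4 of the groups are thus neighbours by tag, and what neighbouring tags share is not stated. P-values set the difference between the groups against the spread between these animals, taken as independent.

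Tfr1, the protein of the gene Tfrc, is the receptor that binds iron-loaded transferrin at the cell surface and carries it into the endosome, where the iron is released. Cells spend that iron on heme, on iron-sulfur clusters of the respiratory chain and the citric acid cycle, and on iron- and 2-oxoglutarate-dependent oxygenases, among them the prolyl hydroxylases that mark hypoxia-inducible factor for destruction. The cardiomyocyte of the first postnatal days is at the same time moving from glycolysis to fatty acid oxidation and from fetal to adult contractile and channel proteins.

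Values are the deposited log2 expression values, with a median of 5.03 over the 8 arrays, and a difference of 1 is a 2-fold change. For each of 18193 genes the brightest probe set over the 8 arrays was used, the groups were compared with limma, and a gene was called where its p-value, adjusted by Benjamini-Hochberg over all genes, was under 0.05. Array medians lay between 5.01 and 5.06. Each wild-type array correlated with the rest of its group at 0.995 to 0.996, knockout replicates 1, 2 and 4 at 0.991 to 0.992, and knockout replicate 3 at 0.985. The Y-linked gene Eif2s3y was at 8.79 to 9.49 and Xist, the RNA of the inactive X, at 4.11 to 4.62 in all 8 hearts.

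The targeted gene was read first. The brightest Tfrc probe set was at 11.15, 11.16, 11.47 and 11.44 in wild-type replicates 1 to 4 and at 11.88, 11.81, 11.19 and 11.84 in knockout replicates 1 to 4. Those ranges overlapped, with means of 11.30 ± 0.17 and 11.68 ± 0.33 (SD, n = 4), and the gene was not called (0.38 ± 0.16 (SE), adjusted p = 0.187). The array also carries control probe sets against the 5′ end, the middle and the 3′ end of the receptor's mRNA. At the 5′ end the wild-type values were 3.06, 2.87, 3.04 and 2.84 and the knockout values 2.49, 2.57, 2.36 and 2.55, without overlap. That is 2.95 ± 0.12 against 2.49 ± 0.10, a fall of 0.46 on the log2 scale (adjusted p = 0.0148 over all 45101 probe sets, of which 5.26% passed). The knockout mean there stood at the 5.26th percentile of all values, so this is a dim signal, and the call was lost without wild-type replicate 1 (adjusted p = 0.0519) or 3 (0.0533). The middle and 3′ control probe sets, with wild-type means of 4.03 and 4.12, did not pass, nor did the 2 other Tfrc probe sets. The control probe sets were thus under the array median of 5.03 in wild-type hearts too, where the brightest probe set was at 11.30. Which exons are deleted is not stated in the labels, so the bright probe set may lie outside the deleted part and checks nothing by itself.

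Between the knockout and wild-type hearts 1573 genes differed, 8.65% of those tested, 780 of them higher in the knockout (4.29%) and 793 lower (4.36%). A difference of at least 1 on the log2 scale was reached by 208 called genes, 67 higher and 141 lower. The median difference over all genes was -0.01, so the changes are relative to a centre near 0. Groups did not overlap for 3686 genes, 20.3% of those tested, which included 1562 of the called genes. The count of calls moved with single arrays. It was 2709 without knockout replicate 3, and 674, 817, 739 and 698 without wild-type replicates 1, 2, 3 and 4, 797 without knockout replicate 4, 1538 without knockout replicate 1 and 1363 without knockout replicate 2. For 576 genes, 300 higher and 276 lower, the call held whichever array was left out. The counts of each list below stand beside the shares over all genes, 4.29% called higher and 4.36% called lower. For each list with calls below, the number of calls that held whichever array was left out is given, and the count without knockout replicate 3 where it differs from the count with all arrays by over 1.5 times.

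The largest rise was that of Nmrk2, the kinase that turns nicotinamide riboside into a precursor of NAD. It was at 7.12, 7.89, 6.96 and 6.77 in wild-type replicates 1 to 4 and at 12.49, 12.36, 12 and 12.48 in knockout replicates 1 to 4. Every knockout heart was thus above every wild-type heart by more than any spread within a group, and the mean rose from 7.19 ± 0.49 to 12.33 ± 0.23 (SD, n = 4), or 35.5-fold (5.15 ± 0.23 (SE) on the log2 scale, adjusted p = 4.85e-05). Plcxd2, which carries a phospholipase C domain, followed at 5.42, 5.28, 5.48 and 5.29 against 7.94, 8.05, 8.73 and 8.61, a rise of 2.97 ± 0.17 (adjusted p = 1.35e-04). P3h2, a collagen prolyl hydroxylase, rose by 2.26 ± 0.24 from 5.59, 6.06, 5.95 and 5.93 to 7.72, 7.67, 8.74 and 8.43 (adjusted p = 0.00168).

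The remaining 12 of the 15 largest rises fell between 1.76 and 2.24. Enzymes and regulators of stress were Mthfd2, a mitochondrial folate enzyme (2.24), the pseudokinase Trib3 (1.90), the growth-arrest genes Gadd45g (1.82) and Cdkn1a (1.79), and the mitochondrial adenylate kinase Ak4 (1.83). The glucose transporter gene Slc2a1 rose by 2.01 and the prolyl hydroxylase gene Egln3 by 1.90. The secreted matrix genes Ccn1 (2.06), Ccn2 (1.91) and Col8a1 (1.85) were joined by Rasl11b, a small GTPase of the Ras family (1.78), and Abra, an actin-binding protein of striated muscle (1.76). Of these 15 calls only that of Col8a1 was lost when single arrays were left out: its call was lost without wild-type replicate 1, 2 or 4 or knockout replicate 4 (adjusted p up to 0.0732).

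The largest fall was that of Aqp4, a water channel, at 8.14, 7.70, 7.80 and 8.05 in wild-type and 5.05, 5.47, 2.57 and 3.17 in knockout replicates 1 to 4. The wild-type hearts lay close together and the knockout hearts far apart, with replicates 3 and 4 well below replicates 1 and 2, and the mean fell by 3.86 ± 0.59 (SE, adjusted p = 0.00701). Cabcoco1, a gene of ciliary coiled-coil protein, was at 8.04, 7.94, 7.92 and 7.71 against 4.62, 4.80, 3.29 and 4.52 (-3.60 ± 0.29, adjusted p = 6.94e-04). Falls of 2.05 to 2.94 were measured for Asb15 and Asb5, substrate adaptors of ubiquitin ligases, Rbfox1, a splicing regulator of heart and brain, Iigp1, an interferon-inducible GTPase, Tmod4, an actin filament capping protein, Kcnd2, the Kv4.2 channel, Pla2g5, a secreted phospholipase, Lrtm1, Gpr22, an orphan receptor, Ky, a peptidase of muscle, and Cmbl, a cytosolic hydrolase. Rpl3l, a muscle form of a ribosomal protein, fell by 1.89, and Hamp, which encodes hepcidin, by 1.88. The calls of Asb15 and Kcnd2 were lost without any 1 wild-type array or knockout replicate 4 (adjusted p up to 0.113 and 0.0951), and the other 13 held. In Aqp4, Cabcoco1, Tmod4, Pla2g5 and Gpr22 the knockout mean lay under the median of all values, so the size of the fall there is read at low signal.

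**Figure D1:**
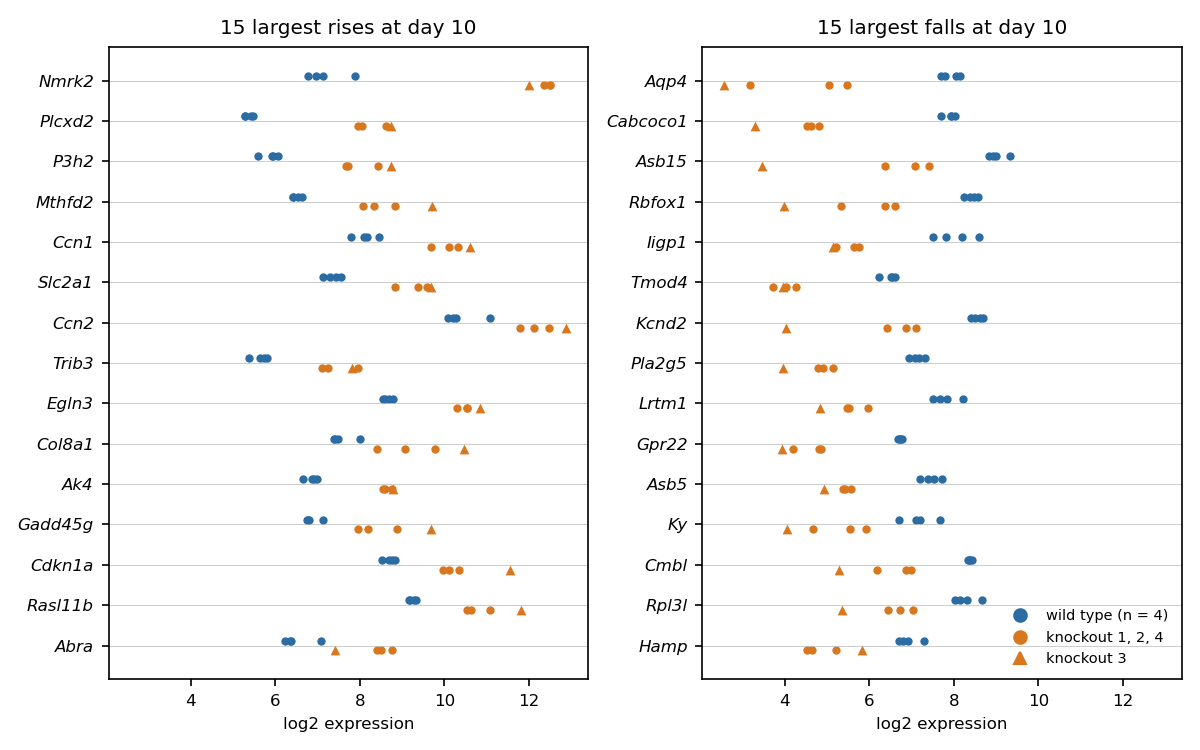
Log2 expression of the 15 genes with the largest rises and the 15 with the largest falls, in each of the 8 hearts (blue wild type, orange knockout, a triangle for knockout replicate 3), on a horizontal log2 axis. No orange point overlaps the blue points of the same gene, and Nmrk2 stands apart with wild-type values of 6.77 to 7.89 and knockout values of 12 to 12.49.

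Of the 32 measured genes of iron uptake, storage, export and sensing, 1 rose and 6 fell, and 1 and 3 of these calls held whichever array was left out. Without knockout replicate 3 there were 3 rises and 9 falls. The median difference of the list was -0.07. Hamp, the hormone that makes cells degrade the iron exporter, was at 6.71, 6.80, 7.29 and 6.91 in wild-type and 5.20, 4.65, 5.82 and 4.52 in knockout hearts. All knockout values lay below all wild-type values, and the fall was 1.88 ± 0.27 (adjusted p = 0.00588), read from a probe set that may also detect the near-identical copy Hamp2. Hjv, the co-receptor that drives hepcidin expression, was at 10.30, 10.12, 10.39 and 10.15 against 9.21, 9.13, 7.29 and 8.82. It fell by 1.62, with knockout replicate 3 lowest by far, and its call was lost without any 1 wild-type replicate or knockout replicate 4 (adjusted p up to 0.0903). Cubn, an endocytic receptor for iron-carrying proteins among others, was at 5.26, 5.22, 4.84 and 4.90 against 4.01, 3.77, 3.43 and 3.85 and fell by 1.29 (adjusted p = 0.00212), with all values near or under the median of the arrays.

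Fbxl5, the ubiquitin ligase subunit that removes iron regulatory proteins when iron is present, was at 8.42, 8.43, 8.26 and 8.42 against 8.0, 8.04, 7.83 and 8.04 (adjusted p = 0.0127), a fall of 0.41. Scara5, a ferritin receptor, fell by 1.01, and its call was lost without wild-type replicate 1, 3 or 4 (adjusted p up to 0.0632). The ferritin heavy chain gene Fth1 was at 12.70, 12.63, 12.68 and 12.74 against 12.50, 12.53, 12.37 and 12.42, a separation of 0.23 between very tight groups, and its call was lost without any 1 wild-type replicate or knockout replicate 1, 2 or 4 (adjusted p up to 0.131). The single rise was that of Steap4, a metalloreductase that reduces iron and copper, from 9.47 ± 0.10 to 10.01 ± 0.17 (adjusted p = 0.0114). The iron exporter Slc40a1 (-0.47 ± 0.14), the endosomal iron transporter Slc11a2 (0.38 ± 0.11), the transporter Slc39a14 (0.17 ± 0.07) and the iron regulatory protein genes Aco1 (-0.09 ± 0.10) and Ireb2 (-0.05 ± 0.07) did not pass, as differences with SE.

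Heme genes held 3 falls among 21 measured and no rise, and 5 falls and 2 rises without knockout replicate 3. Urod, an enzyme of heme synthesis, was at 10.59, 10.46, 10.57 and 10.55 against 10.20, 10.09, 9.80 and 9.96 and fell by 0.53 (adjusted p = 0.0106), and its call alone held whichever array was left out. The fall of the mitochondrial outer membrane protein gene Tspo was 0.36; its call was lost without any 1 wild-type replicate or knockout replicate 1, 2 or 4 (adjusted p up to 0.0893). That of the transporter gene Flvcr2 was 0.69; its call was lost without any 1 wild-type replicate or knockout replicate 2 (adjusted p up to 0.0968). In iron-sulfur cluster assembly 3 of 22 genes rose and none fell, with calls that held for 2. Nubp1, a scaffold of cytosolic clusters, was at 6.71, 6.79, 6.63 and 6.53 against 7.24, 7.25, 7.23 and 7.31, and the mitochondrial chaperone gene Hspa9 at 10.40, 10.53, 10.54 and 10.48 against 10.86, 10.85, 11.01 and 10.90; the groups did not overlap in either, with rises of 0.59 and 0.42 (adjusted p = 0.00265 and 0.00671). Mms19, which delivers clusters to target proteins, rose by 0.39; its call was lost without any 1 wild-type replicate (adjusted p up to 0.0737). Among 27 iron- and 2-oxoglutarate-dependent oxygenases and other iron enzymes, 6 rose and none fell, 4 of them in all fits, and 2 fell without knockout replicate 3. They were the prolyl hydroxylases Egln3, P3h2 and P4ha1, the demethylase Alkbh1 (0.61, adjusted p = 0.00798), the histone demethylase Kdm3a (0.62; its call was lost without any 1 wild-type replicate (adjusted p up to 0.0736)) and the collagen lysyl hydroxylase Plod1 (0.24; its call was lost without any 1 wild-type replicate or knockout replicate 1, 2 or 4 (adjusted p up to 0.112)).

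Of 27 measured targets of hypoxia-inducible factor 15 rose and 1 fell, the median difference was 0.43, and 12 of the rises, and not the fall, held whichever array was left out. Egln3, a prolyl hydroxylase that acts on the factor and is itself its target, was at 8.54, 8.58, 8.79 and 8.68 in wild-type and 10.31, 10.52, 10.85 and 10.53 in knockout hearts, a rise of 1.90 ± 0.11 (adjusted p = 1.35e-04). Ak4 was at 6.65, 6.86, 6.92 and 6.97 against 8.60, 8.56, 8.79 and 8.77 (adjusted p = 4.85e-05). In both genes the groups were tight and far apart. Slc2a1, the glucose transporter of the fetal heart, was at 7.14, 7.55, 7.43 and 7.30 against 8.83, 9.37, 9.68 and 9.58, and Bnip3, a mitophagy receptor, at 10.52, 10.54, 10.31 and 10.46 against 11.64, 11.79, 12.45 and 12. These are rises of 4.03-fold and 2.85-fold (adjusted p = 0.00101 and 0.00164). Smaller rises that held in all fits were those of the oxidase gene Ero1a (0.83), the angiogenic factor Vegfa (0.76), the collagen hydroxylase P4ha1 (0.76) and phosphoglycerate kinase Pgk1 (0.61). The 1 fall was that of Pfkfb4 (-0.37), chosen for mention after its value was seen; its call was lost without any 1 wild-type replicate or knockout replicate 1 or 4 (adjusted p up to 0.109).

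Glycolysis and lactate handling held 12 rises and no fall among 24 genes, with a median of 0.44 and 9 rises that held in all fits; 2 genes fell without knockout replicate 3. From transport to the last steps, the pathway's called genes were Slc2a1, hexokinase Hk2 (0.88), the phosphofructokinase Pfkp (1.38), aldolase Aldoa (0.46), triosephosphate isomerase Tpi1 (0.58), Pgk1, phosphoglycerate mutase Pgam1 (0.83), lactate dehydrogenase Ldha and the pyruvate dehydrogenase kinase Pdk1 (0.77), together with 3 more. Pfkp was at 8.64, 8.72, 8.82 and 8.59 against 9.72, 9.86, 10.47 and 10.24 (adjusted p = 0.00215). Tpi1, among the brightest genes, was at 11.79, 11.79, 11.78 and 11.85 against 12.36, 12.31, 12.48 and 12.38 (adjusted p = 0.00161), and Aldoa at 12.38, 12.45, 12.40 and 12.52 against 12.95, 12.95, 12.80 and 12.89 (adjusted p = 0.00503). In all 3 genes every knockout heart was above every wild-type heart. Slc2a1, Hk2, Pgk1, Ldha and Pdk1 are also members of the hypoxia list above, so both counts hold their rises.

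The integrated stress response is the programme in which phosphorylated eIF2 slows translation while the factor ATF4 switches on amino acid synthesis, transport and tRNA charging. Of its 29 measured genes 13 rose and 2 fell, with a median of 0.50, and 9 rises and no fall held whichever array was left out. Atf4 itself was at 9.97, 9.93, 9.96 and 9.74 in wild-type and 10.65, 10.58, 10.98 and 10.90 in knockout hearts, and rose by 0.88 ± 0.10 (adjusted p = 0.00272). Trib3, a pseudokinase that ATF4 induces, was at 5.72, 5.81, 5.36 and 5.62 against 7.25, 7.11, 7.81 and 7.96 (adjusted p = 0.00157). Chac1, which degrades glutathione, was at 6.76, 6.37, 6.64 and 6.25 against 7.99, 7.70, 7.71 and 8.26, 2.65-fold higher (adjusted p = 0.00190). In these genes all 4 knockout hearts, and not replicate 3 alone, were above the wild type.

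Amino acid synthesis was represented by Asns, which makes asparagine, at 7.67, 8.10, 8.10 and 7.77 against 8.95, 9.32, 10.21 and 9.65 (1.62 ± 0.24, adjusted p = 0.00657). Mthfd2 and Shmt2, mitochondrial enzymes of one-carbon metabolism, were at 6.41, 6.42, 6.62 and 6.54 against 8.07, 8.33, 9.71 and 8.82 and at 7.97, 7.99, 8.04 and 8.01 against 8.48, 8.62, 8.88 and 8.54. In both, knockout replicate 3 was the highest heart, and both calls held without it (Mthfd2 1.91, adjusted p = 3.49e-04, and Shmt2 0.54, adjusted p = 9.03e-04). The proline synthesis gene Aldh18a1 rose by 0.77 (adjusted p = 0.00611). The hormone gene Fgf21 was at 3.83, 4.17, 4.0 and 3.98 in wild-type hearts, well under the median of the arrays, and at 5.15, 4.66, 4.66 and 5.06 in knockout hearts, so its rise of 0.89 (adjusted p = 0.00622) is read at low signal.

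Aminoacyl-tRNA synthetases of the cytosol, the enzymes that load each amino acid onto its tRNA, held the largest share of calls among the 49 lists described. Of 19 measured, 15 rose and none fell, the median was 0.49, and 11 rises held whichever array was left out. Aars, for alanine, was at 8.75, 8.72, 8.75 and 8.61 against 9.55, 9.36, 9.37 and 9.48 (0.73 ± 0.07, adjusted p = 0.00122). Sars, for serine, was at 7.81, 7.86, 7.86 and 8.10 against 8.81, 8.56, 9.27 and 9.0, 2.01-fold higher (adjusted p = 0.00559), and Gars, for glycine, at 9.31, 9.45, 9.35 and 9.37 against 10.06, 10.03, 10.70 and 10.24 (adjusted p = 0.00734). Rises of 0.71 in Cars, 0.50 in Mars1, 0.47 in Tars, 0.54 in Yars and 0.70 in Eprs, for cysteine, methionine, threonine, tyrosine and glutamate with proline, were as separate between the groups. Taken by heart, the mean level of the 19 genes was 8.28 to 8.33 in wild-type and 8.68 to 8.84 in knockout hearts.

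The amino acid transporters moved both ways, 4 of 20 higher and 2 lower, with a median of 0.08 and 2 rises and 1 fall held in all fits. Slc7a5, the light chain of the exchanger for large neutral amino acids, was at 6.86, 6.90, 6.99 and 6.69 against 8.26, 8.11, 9.36 and 8.54 (3.27-fold, adjusted p = 0.00540). Its heavy chain Slc3a2 rose by 0.67; its call was lost without any 1 wild-type replicate or knockout replicate 4 (adjusted p up to 0.122). Slc38a4, a system A transporter, rose by 0.70 (adjusted p = 0.00157), and Slc1a1, a glutamate transporter, fell by 0.78 (adjusted p = 0.00215). Folate and one-carbon enzymes held 5 rises and 3 falls among 19, of which 3 and 1 held in all fits. Beside Mthfd2 and Shmt2, Mthfd1l, which makes formate in mitochondria, was at 6.24, 6.40, 6.17 and 5.91 against 6.95, 7.03, 7.52 and 7.37 (1.04 ± 0.15, adjusted p = 0.00567). Methionine synthase Mtr, which passes the methyl group of folate to homocysteine, fell by 0.41 (adjusted p = 0.00783).

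ATF4 binds elements known as CARE, for which TGATGNAA was searched on both strands in the 250 bases upstream of each RefSeq start (GRCm38.p6). The letters were present for 2.84% of the 14452 tested genes with a promoter in the table, for 7 of 26 genes of the integrated stress response list (26.9%) and for 3 of 12 synthetases (25.0%). Of the 13 list genes with a promoter that were called higher 3 held it, and of the 13 that were not 4 did, and the share over all genes called higher was 2.25%. The windows of the 6 called genes are printed because they hold the letters that both lists have more often than promoters at large; the match is in capitals, on either strand, and each window ends at the base before the start. They lie at chr2:119350992-119351241 (plus strand) for Chac1, chr6:7693210-7693459 (minus strand) for Asns, chr7:45615491-45615740 (minus strand) for Fgf21, chr8:111033592-111033841 (plus strand) for Aars, chr6:55037751-55038000 (plus strand) for Gars and chr15:11399659-11399908 (minus strand) for Tars.
Chac1: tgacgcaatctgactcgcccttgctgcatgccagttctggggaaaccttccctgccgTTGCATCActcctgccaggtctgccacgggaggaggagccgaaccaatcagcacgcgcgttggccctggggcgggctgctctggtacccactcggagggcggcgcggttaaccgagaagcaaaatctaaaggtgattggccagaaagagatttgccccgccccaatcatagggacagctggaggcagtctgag
Asns: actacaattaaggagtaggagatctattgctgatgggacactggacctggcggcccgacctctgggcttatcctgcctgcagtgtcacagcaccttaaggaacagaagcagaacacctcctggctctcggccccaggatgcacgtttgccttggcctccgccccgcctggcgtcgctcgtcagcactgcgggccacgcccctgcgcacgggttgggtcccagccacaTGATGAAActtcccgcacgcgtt
Fgf21: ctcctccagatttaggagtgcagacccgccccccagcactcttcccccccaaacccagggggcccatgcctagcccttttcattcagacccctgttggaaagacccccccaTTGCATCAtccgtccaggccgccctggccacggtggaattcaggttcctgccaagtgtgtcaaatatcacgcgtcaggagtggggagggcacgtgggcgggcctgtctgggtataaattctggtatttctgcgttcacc
Aars: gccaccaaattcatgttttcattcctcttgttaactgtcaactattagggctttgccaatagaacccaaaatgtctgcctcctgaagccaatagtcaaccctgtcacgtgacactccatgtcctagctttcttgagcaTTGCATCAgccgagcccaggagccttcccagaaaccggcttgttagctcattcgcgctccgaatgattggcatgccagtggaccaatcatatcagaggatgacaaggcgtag
Gars: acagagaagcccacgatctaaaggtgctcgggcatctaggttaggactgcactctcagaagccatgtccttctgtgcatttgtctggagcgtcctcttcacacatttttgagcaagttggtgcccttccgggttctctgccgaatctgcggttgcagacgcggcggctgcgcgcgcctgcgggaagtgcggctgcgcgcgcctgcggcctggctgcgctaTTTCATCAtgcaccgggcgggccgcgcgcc
Tars: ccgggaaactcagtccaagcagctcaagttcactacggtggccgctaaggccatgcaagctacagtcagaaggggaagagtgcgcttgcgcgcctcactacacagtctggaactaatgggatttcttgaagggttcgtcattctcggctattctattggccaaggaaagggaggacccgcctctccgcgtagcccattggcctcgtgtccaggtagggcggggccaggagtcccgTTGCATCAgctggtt
The match begins -193 bases from the start in Chac1, -23 in Asns, -139 in Fgf21, -112 in Aars, -30 in Gars and -15 in Tars, counted from -1 directly before it. The same search for the core of the hypoxia response element, ACGTG or GCGTG, which may overlap, found it for 25 of 26 targets of hypoxia-inducible factor (96.2%), for 53.6% of all genes and for 65.7% of those called higher. Among those targets the core was present for all 14 called higher and for 11 of the 12 not called higher. It was also present for 73.1% of the integrated stress response list, 75% of the synthetases and 90.9% of the glycolysis list. Counted by promoter, the shares were 81.6% for the hypoxia targets and 48.9% for all genes. A match is a description of the letters, not a binding site.

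**Figure D2:**
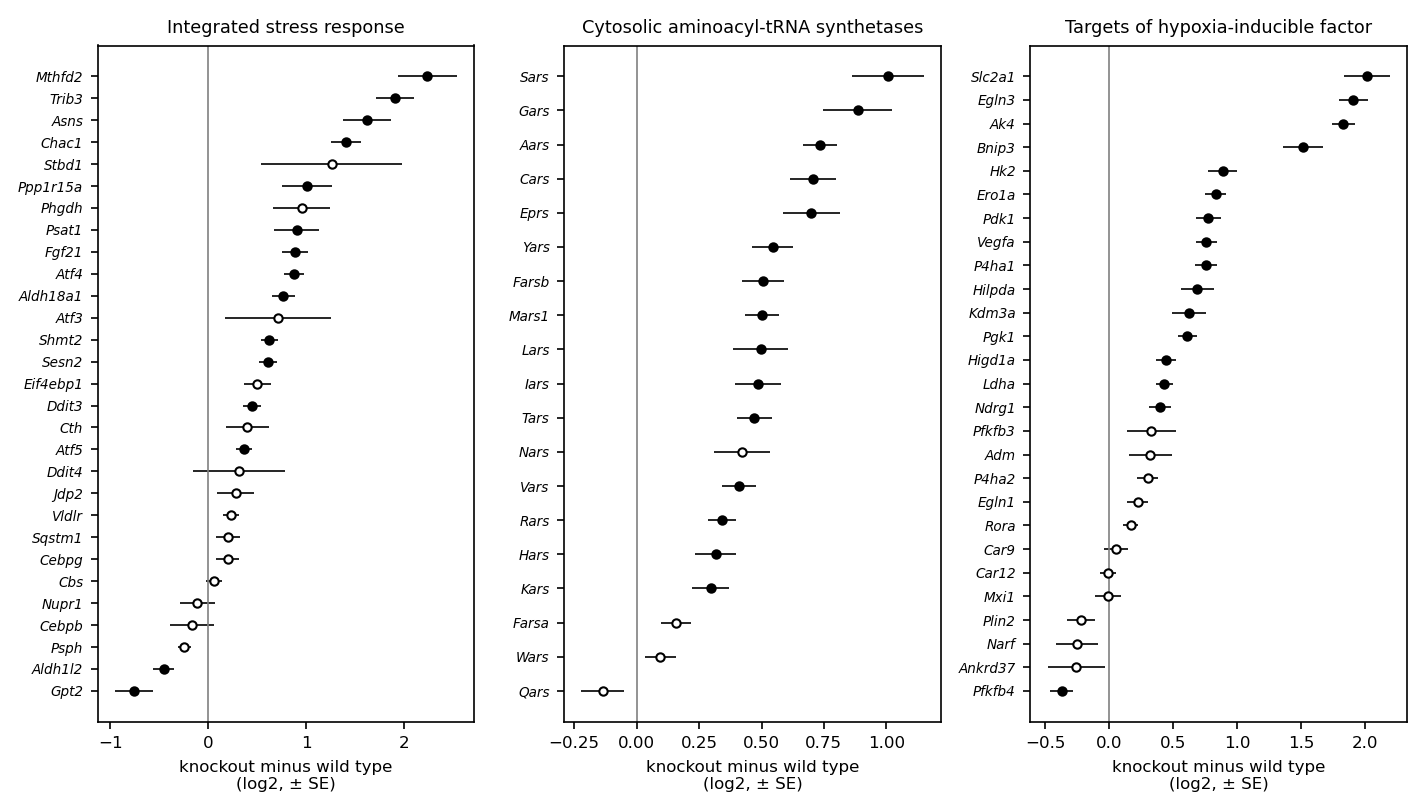
Knockout minus wild-type difference (log2, point, with the model's SE as a bar) for the measured genes of the integrated stress response, the cytosolic aminoacyl-tRNA synthetases and the targets of hypoxia-inducible factor, filled where called and open where not. Filled points lie to the right of 0 for 13, 15 and 15 genes and to the left for 2, 0 and 1.

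Beside Nmrk2, NAD metabolism held 1 rise and 2 falls among 22 genes, with a list median of -0.06; the call of Nmrk2 and both falls held in all fits. Slc12a8, proposed as a carrier of nicotinamide mononucleotide, rose by 0.42 at levels under the median; its call was lost without wild-type replicate 4 or knockout replicate 4 (adjusted p up to 0.0634). Nadk2, the mitochondrial NAD kinase, was at 9.58, 9.47, 9.51 and 9.38 against 8.93, 9.05, 8.56 and 8.67 and fell by 0.68 (adjusted p = 0.00871). Slc25a51, the mitochondrial NAD carrier, was at 10.66, 10.60, 10.77 and 10.57 against 10.25, 10.33, 10.15 and 10.10 and fell by 0.44 (adjusted p = 0.00970).

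Respiratory chain genes held no call. None of 17 genes of the list of complexes with heme or iron-sulfur clusters and of heme A assembly, which also holds Sdha, Cox4i1 and Cox5a, subunits without either cofactor, and none of 27 for other subunits passed the test, although 16 and 26 of them had negative differences, with medians of -0.14 and -0.10. At an unadjusted p under 0.05 in limma there were 5 and 8, beside 4466 of all 18193 genes tested. Without wild-type replicate 4, 1 gene of the first list rose. The mean level of the first list was 11.74 to 11.76 in wild-type hearts and 11.73, 11.70, 11.42 and 11.60 in knockout replicates 1 to 4. Cox15, of heme A synthesis, was at -0.27 ± 0.09 (SE) and Cox10, of the step before it, at 0.25 ± 0.07. The tricarboxylic acid cycle list also holds Pdha1, Pdhb, Dlat, Pcx and Me3, whose enzymes lie outside the cycle itself. In this list 18 of 19 differences were negative, with a median of -0.22. The 1 gene that passed was the malic enzyme Me3 (-0.69), so no enzyme of the cycle itself was called. The call of Me3 was lost without any 1 wild-type replicate or knockout replicate 4 (adjusted p up to 0.113). Fatty acid uptake and oxidation likewise had 1 call among 23, the fatty acid transporter Slc27a1 (-0.83; its call was lost without any 1 wild-type replicate or knockout replicate 4 (adjusted p up to 0.126)), and a median of -0.12. It had 2, 3 and 5 falls without knockout replicates 1, 2 and 3, and none without knockout replicate 4 or any 1 wild-type array.

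Degradation of branched-chain amino acids and ketones held more calls, 5 falls among 17 genes with a median of -0.35. Ivd, of leucine breakdown, was at 8.45, 8.26, 8.64 and 8.61 against 7.85, 7.80, 7.17 and 7.44 and fell by 0.93 (adjusted p = 0.0106). Dbt, the core of the branched-chain ketoacid dehydrogenase, was at 8.0, 8.02, 8.06 and 7.89 against 7.62, 7.68, 7.60 and 7.45 and fell by 0.41 (adjusted p = 0.0112). These 2 calls held whichever array was left out. The falls of Bckdhb (0.51; its call was lost without wild-type replicate 2, 3 or 4 or knockout replicate 4 (adjusted p up to 0.0889)) and Aldh6a1 (0.50; its call was lost without any 1 wild-type replicate or knockout replicate 1 or 4 (adjusted p up to 0.100)) did not.

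Among 20 regulators of mitochondrial and metabolic genes 1 rose and 4 fell, the rise and 1 fall in all fits. Ppara, the nuclear receptor of fatty acid oxidation, was at 8.26, 8.42, 8.22 and 8.29 against 7.79, 7.44, 6.88 and 7.07 and fell by 1.0 ± 0.18 (adjusted p = 0.0120). Its co-activator gene Ppargc1b fell by 0.65 (its call was lost without wild-type replicate 1, 2 or 4 or knockout replicate 4 (adjusted p up to 0.0803)) and its partner receptor gene Rxrg by 1.03 (its call was lost without any 1 wild-type replicate or knockout replicate 4 (adjusted p up to 0.0747)). Myc, a driver of growth and of glycolytic genes, was at 6.21, 6.56, 6.38 and 6.17 against 8.10, 8.03, 7.41 and 8.12, a rise of 1.59 ± 0.17 (adjusted p = 0.00166), with knockout replicate 3 the lowest of the 4. Nucleus-encoded mitochondrial stress genes held 7 rises and no fall among 14, with a median of 0.27 and 3 rises held in all fits. Afg3l2, an inner membrane protease, was at 8.63, 8.81, 8.79 and 8.88 against 9.27, 9.35, 9.29 and 9.37 (adjusted p = 0.00364). Hspa9 and Fgf21 were the other held calls, and Atf5, a factor of the mitochondrial unfolded protein response, rose by 0.36 (its call was lost without any 1 wild-type replicate or knockout replicate 4 (adjusted p up to 0.0829)).

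The list of mitophagy and autophagy also holds the muscle ubiquitin ligases Trim63 and Fbxo32, which are not autophagy genes themselves. Of its 28 genes 2 rose and 5 fell, with a median of -0.04, and 1 rise and 3 falls held in all fits. The 5 falls include both ligases. Beside the rise of Bnip3, the falls were led by Pink1, the kinase that marks damaged mitochondria, at 10.83, 10.69, 10.82 and 10.88 against 10.22, 10.25, 9.90 and 10.00 (adjusted p = 0.00405), and by the muscle ubiquitin ligases Trim63 (-0.44) and Fbxo32 (-1.36). Fbxo32 was at 8.90, 8.78, 8.75 and 8.74 against 8.02, 7.84, 7.05 and 6.82, lowest in knockout replicates 3 and 4 (adjusted p = 0.0135). The mitophagy receptor Fundc1 fell by 0.53; its call was lost without any 1 wild-type replicate or knockout replicate 4 (adjusted p up to 0.0889). Of 20 genes of mitochondrial fusion, fission and import 2 rose, both in all fits, and 2 fell, neither in all fits, with 4 rises without knockout replicate 3. Gfer, of intermembrane space import, and Timm50, of the inner membrane translocase, rose by 0.77 and 0.42 (adjusted p = 0.00657 and 0.00691), while Mfn2, the outer membrane fusion GTPase, fell by 0.27 (its call was lost without wild-type replicate 2, 3 or 4 or knockout replicate 1, 2 or 4 (adjusted p up to 0.0791)).

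Genes of the fetal and stressed heart held 9 rises and 1 fall among 23, with a median of 0.62; 5 rises and the fall held in all fits, and 2 fell without knockout replicate 3 or 4. Nppb, the B-type natriuretic peptide, was at 11.91, 11.99, 12.10 and 11.88 in wild-type and 13.01, 13.25, 13.69 and 13.42 in knockout hearts, 2.59-fold higher (adjusted p = 0.00134), and Nppa, the atrial peptide, at 12.88, 12.97, 12.87 and 13.04 against 13.45, 13.37, 13.77 and 13.67 (adjusted p = 0.00734). Tnfrsf12a, the TWEAK receptor, was at 10.34, 10.34, 10.13 and 9.99 against 11.20, 11.26, 11.61 and 11.61 (adjusted p = 0.00160). Each of these separated the groups in all 4 hearts. Rcan1, a calcineurin inhibitor, rose by 0.94 and Bex1 by 1.38 (adjusted p = 0.00657 and 0.00753).

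The fetal myosin heavy chain Myh7 was more variable, at 9.40, 9.66, 8.07 and 9.11 against 9.98, 10.11, 11.07 and 10.71. Its rise of 1.40 passed narrowly, and its call was lost without any 1 wild-type replicate or knockout replicate 2, 3 or 4 (adjusted p up to 0.118). Acta1, skeletal actin, was at 9.29, 10.23, 10.26 and 10.49 against 10.67, 11.29, 12.63 and 12.15, and its call was lost without any 1 wild-type replicate or knockout replicate 2 or 4 (adjusted p up to 0.129). Ankrd1, a stretch-sensing Z-disc protein, rose by 0.66; its call was lost without wild-type replicate 1, 2 or 3 or knockout replicate 4 (adjusted p up to 0.0685). Smooth muscle actin Acta2, also counted in that list, was at 12.48, 12.75, 12.51 and 12.61 against 11.56, 12.01, 11.53 and 12.07, a fall of 0.79 (adjusted p = 0.0113).

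Matrix and matricellular genes held 8 rises and 1 fall among 34, with a median of 0.25, and 5 rises held in all fits; 4 fell without knockout replicate 3. Ccn1 was at 7.78, 8.09, 8.45 and 8.16 against 9.69, 10.11, 10.59 and 10.32 and Ccn2 at 10.28, 10.08, 11.09 and 10.20 against 11.79, 12.12, 12.88 and 12.47; both are secreted modulators of matrix and integrin signalling, and their rises were 4.16-fold and 3.75-fold (adjusted p = 0.00134 and 0.00579). Thbs1, thrombospondin, rose by 1.13 (adjusted p = 0.00606). The fall was that of the gelatinase Mmp2 (-0.41; its call was lost without wild-type replicate 3 or 4 or knockout replicate 4 (adjusted p up to 0.0604)). Col8a1 was at 7.40, 7.49, 8.0 and 7.39 against 8.40, 9.06, 10.47 and 9.78, with knockout replicate 3 highest.

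Of 22 immediate early genes 4 rose, with a median of 0.49, and only Myc kept its call in all fits. The list had 8 rises without knockout replicate 3, 2 without knockout replicate 2 and 1 without knockout replicate 4 or wild-type replicate 1, 2 or 4. Egr2 was at 4.84, 4.57, 5.57 and 5.43 against 7.02, 6.51, 5.71 and 7.65, with knockout replicate 3 next to the wild type, and its call was lost without any 1 wild-type replicate or knockout replicate 1, 2 or 4 (adjusted p up to 0.108). The p53 target and apoptosis list held 6 rises and 1 fall among 19, and 5 rises held in all fits. The cell cycle inhibitor Cdkn1a was at 8.77, 8.82, 8.69 and 8.53 against 10.11, 9.97, 11.55 and 10.34, and the nuclease gene Aen and the AKT inhibitor Phlda3 rose by 1.02 and 0.98 (adjusted p = 0.0106, 0.00369 and 0.00595). Bcl2, an inhibitor of apoptosis, was at 7.52, 7.69, 7.39 and 7.61 against 8.52, 8.56, 8.25 and 8.58 (adjusted p = 0.00161). Among 29 growth factors, cardiokines and hormones, 4 rose and 3 fell, 3 and 1 of them in all fits, and 5 fell without knockout replicate 3. Ctf1, the cytokine cardiotrophin, was at 6.99, 6.82, 6.93 and 6.91 against 5.68, 5.63, 5.65 and 5.70, a fall of 1.24 ± 0.06 (adjusted p = 4.85e-05), and Angptl4, a lipoprotein lipase inhibitor, rose by 1.11 (adjusted p = 0.00744).

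Of 21 calcium handling genes 9 fell and none rose, with a median of -0.35, and 5 falls held in all fits. Ryr2, the calcium release channel, was at 11.57, 11.69, 11.62 and 11.75 in wild-type and 11.08, 11.09, 10.89 and 10.98 in knockout hearts and fell by 0.65 ± 0.07 (adjusted p = 0.00183). Cacnb2, a subunit of the L-type channel, was at 9.13, 8.93, 8.85 and 8.98 against 8.19, 7.97, 7.54 and 7.99 (adjusted p = 0.00350), and the pore subunit Cacna1c fell by 0.69 (adjusted p = 0.0137). Trdn, triadin, which anchors the release complex, was at 11.41, 11.46, 11.45 and 11.39 against 10.77, 10.75, 10.22 and 10.53 (adjusted p = 0.00486). The regulator of the calcium pump Pln fell by 0.51; its call was lost without wild-type replicate 2 or 4 or knockout replicate 4 (adjusted p up to 0.0543). All 4 knockout hearts were lower: the mean level of the 21 genes was 9.05 to 9.11 in wild-type and 8.36 to 8.70 in knockout hearts, replicate 3 the lowest.

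Potassium and sodium channels and gap junction genes, with water channels, held 5 falls and no rise among 23, and a median of -0.34. Kcne1, the subunit of the slow delayed rectifier, was at 11.20, 11.24, 10.92 and 11.13 against 10.38, 10.01, 8.43 and 9.64 (its call was lost without any 1 wild-type replicate or knockout replicate 4 (adjusted p up to 0.0950)), Kcnh2, the pore of the rapid delayed rectifier, at 8.70, 8.60, 8.72 and 8.83 against 8.10, 7.78, 6.17 and 7.41 (its call was lost without any 1 wild-type replicate or knockout replicate 2 or 4 (adjusted p up to 0.123)) and Kcnd2, of the transient outward current, at 8.41, 8.51, 8.69 and 8.62 against 7.10, 6.88, 4.04 and 6.42. In each, knockout replicate 3 was the lowest by far and the other 3 knockout hearts were still under the wild type, so the fit without that heart gave smaller falls with smaller p-values (Kcne1 -1.12, adjusted p = 0.00321; Kcnd2 -1.76, adjusted p = 3.88e-04). Without knockout replicate 3 the list had 10 falls and 1 rise, and without any 1 of the wild-type arrays or knockout replicate 4 it had 1, that of Aqp4.

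Of 25 sarcomere and Z-disc genes 1 rose and 6 fell, 3 of the falls in all fits, with a median of -0.12. Tmod4 was at 6.62, 6.24, 6.52 and 6.54 against 4.03, 4.26, 3.96 and 3.73 and Tmod1, the heart's own tropomodulin, at 11.15, 11.08, 11.07 and 11.15 against 10.69, 10.77, 10.68 and 10.68, falls of 2.48 and 0.41 (adjusted p = 4.85e-05 and 0.00486). Mylk3, the cardiac myosin light chain kinase, fell by 1.29 (adjusted p = 0.00720) and Tcap, which caps titin at the Z-disc, by 0.91 (its call was lost without wild-type replicate 1 or 4 (adjusted p up to 0.0515)). The list of creatine and high-energy phosphate genes held 1 rise and 1 fall, both in all fits, and 3 falls without knockout replicate 3. Ckmt2, mitochondrial creatine kinase, was at 12.23, 12.07, 12.48 and 12.29 against 11.52, 11.44, 10.87 and 11.33 and fell by 0.98 (adjusted p = 0.00680), while Ak4 rose.

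**Figure D3:**
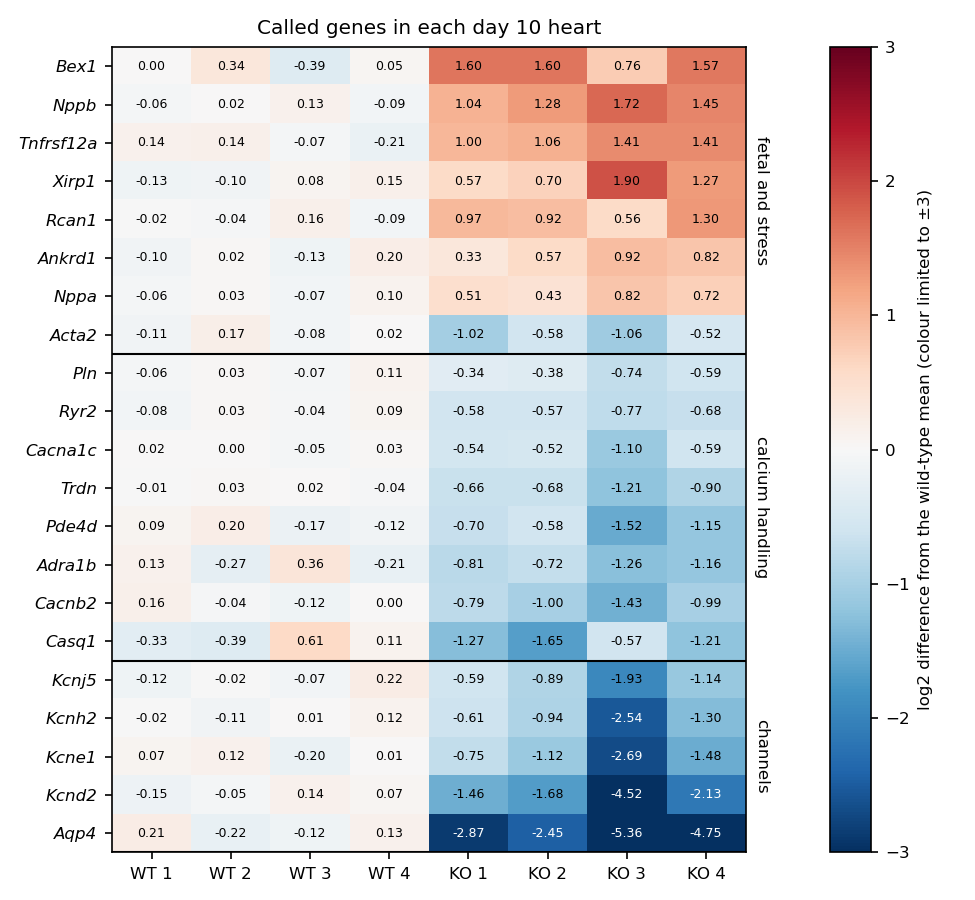
Difference of each heart from the wild-type mean (log2, colour and printed value) for called genes of the fetal and stress list, of calcium handling and of the channel list, with hearts in columns. Rows of fetal and stress genes are positive and rows of calcium and channel genes negative in all 4 knockout hearts, except the fetal list's Acta2, which is negative, and knockout replicate 3 holds the most negative value of each channel row.

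The count of cell cycle genes rested on 1 heart. With all 8 arrays 1 of 33 rose and none fell, with a median of 0.11. The mean level of the list was 7.16 to 7.55 in wild-type hearts, 7.70, 7.76 and 7.88 in knockout replicates 2, 4 and 1, and 6.82 in knockout replicate 3, which was thus below every wild-type heart while the other 3 were above. Without that heart 18 of the 33 were called higher and 1 lower. Cenpe, a kinetochore motor, was the call with all arrays (5.60, 5.66, 5.54 and 5.43 against 6.25, 6.05, 5.85 and 6.10, adjusted p = 0.0132), and Bub1b, of the spindle checkpoint, did not pass with all arrays (0.44 ± 0.14, adjusted p = 0.0929) but did without replicate 3 (0.53, adjusted p = 0.0314).

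Of 24 genes of glutathione, the NRF2 response and ferroptosis 1 rose and 3 fell, with a median of 0.0, and 1 fall held in all fits. Without knockout replicate 3 there were 3 rises and 5 falls. Nqo1, a quinone reductase and marker of that response, was at 7.04, 7.17, 6.98 and 7.10 against 6.29, 6.29, 6.19 and 6.12, a fall of 0.85 (adjusted p = 6.78e-04). Cholesterol and lipid synthesis held 2 falls among 21, 1 of them in all fits, and 1 rise without knockout replicate 3, with fatty acid synthase Fasn at 7.97, 7.92, 8.04 and 8.06 against 7.44, 7.49, 7.34 and 7.43 (adjusted p = 0.00181). Interferon-inducible and antigen presentation genes held 3 falls among 21, 2 of them in all fits, and 1 rise without knockout replicate 3. The falls were all of the family of immunity-related GTPases. Iigp1 was at 7.82, 7.51, 8.59 and 8.19 against 5.63, 5.20, 5.14 and 5.76 (adjusted p = 0.00107), Irgm2 at 6.46, 6.34, 6.83 and 6.53 against 5.77, 5.71, 5.09 and 5.82 (adjusted p = 0.0131), and Igtp fell by 0.53 (its call was lost without wild-type replicate 4 (adjusted p up to 0.0513)).

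Markers of the heart's cell types were read beside these changes. All 14 cardiomyocyte markers were bright, with a mean level of 12.05 to 12.14 in wild-type and 11.85 to 12.01 in knockout hearts, and 3 fell (Ryr2, Pln and Nkx2-5, the last by 0.37; its call was lost without any 1 wild-type replicate or knockout replicate 2 or 4 (adjusted p up to 0.0937)), 1 of them in all fits, and 5 without knockout replicate 3. Of 13 endothelial markers 8 rose, 5 of them in all fits, with a median of 0.43 and a mean level of 9.31 to 9.38 against 9.57 to 9.80. The VEGF receptor gene Flt1 and the secreted Egfl7 rose by 0.56 and 0.51, and the surface proteins Esam and Emcn by 0.43 and 0.59 (adjusted p = 0.00703, 0.00803, 0.00606 and 0.0121). Fibroblast markers had a mean level of 11.12 to 11.19 in wild-type and 10.87 to 10.99 in knockout hearts, with 11 of 12 differences negative. Gsn was the 1 call (-0.41; its call was lost without wild-type replicate 2, 3 or 4 or knockout replicate 1, 2 or 4 (adjusted p up to 0.0899)), and 4 fell without knockout replicate 3. Of 11 markers of smooth muscle and pericytes, with a median of 0.06, the growth factor receptor gene Pdgfrb rose (0.45; its call was lost without wild-type replicate 1 (adjusted p up to 0.0522)) and Acta2 fell, the latter in all fits, with 2 rises and 3 falls without knockout replicate 3. Of 7 markers of neurons and Schwann cells Dbh, of noradrenaline synthesis, fell by 0.44 in all fits (adjusted p = 0.0117), and 2 fell without knockout replicate 3. Of 8 atrial markers Nppa rose, in all fits, and 2 fell without knockout replicate 3. Of 15 skeletal muscle markers Acta1 rose and Tnni2, a fast troponin, fell (-0.76; its call was lost without any 1 wild-type replicate or knockout replicate 4 (adjusted p up to 0.0724)). No marker of macrophages (13 measured), neutrophils (9), lymphocytes (11), erythroid cells (7) or epicardium (8) was called by limma; at an unadjusted p under 0.05 there were 1, 0, 0, 2 and 0, and without knockout replicate 3 there were 2 macrophage falls and 1 erythroid rise. The erythroid list includes Tfrc, the targeted gene, whose difference of 0.38 was the largest positive one of that list. The lowest difference of the list was -0.51. The erythroid counts are thus not a reading of blood cells alone. The part that the endothelial and cardiomyocyte shifts have in the other lists was not tested.

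Signal of genes typical of neighbouring tissues was also present and differed between hearts. Sftpc, of lung alveoli, was at 11.32 in wild-type replicate 3 and at 5.05 to 5.44 in the other 7 hearts. The airway gene Scgb1a1 was at 10.90, 11.81, 12.74 and 10.53 in wild-type and 2.70, 12.72, 9.94 and 3.82 in knockout replicates 1 to 4. The liver gene Alb was at 5.74, 5.20, 5.50 and 5.42 against 6.17, 9.29, 8.54 and 5.27, high in knockout replicates 2 and 3, and the brown fat gene Ucp1 at 11.32, 11.63, 11.30 and 10.65 against 8.85, 11.10, 8.32 and 9.92. None of these 4 was called. The mean level of the brown fat list was 7.80 to 8.33 in wild-type and 7.20 to 8.06 in knockout hearts. No member of the lung (8 measured), liver (7) or brown fat (8) lists was called by limma. At an unadjusted p under 0.05 there were 0, 1 and 5, beside 4466 of all 18193 genes tested. Without knockout replicate 2 there were 3 falls of brown fat genes, and without replicate 3 there was 1. The source of the lung, liver and brown fat signals, and their part in other results, was not tested.

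**Figure D4:**
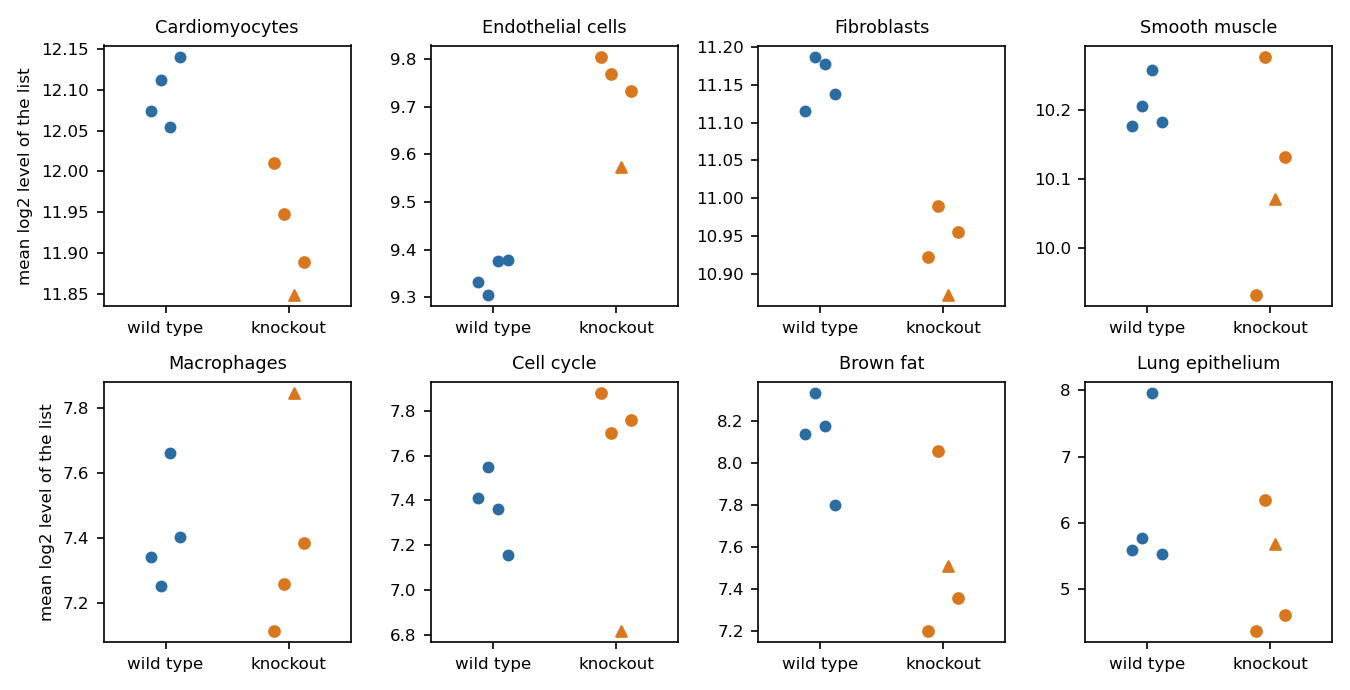
Mean log2 level of marker lists in each heart (blue wild type, orange knockout, triangle for knockout replicate 3), 1 panel per list with its own vertical axis. Endothelial levels are higher in all 4 knockout hearts, cardiomyocyte and fibroblast levels lower, and the cell cycle list separates knockout replicate 3 (6.82) from the other knockout hearts (7.70 to 7.88).

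The knockout hearts also differed among themselves. Over genes called without the heart in question, in fits that share the wild-type arrays with the shift, and measured from the wild-type mean in the direction of the call, the median shift was 0.40 in knockout replicate 1, 0.41 in replicate 2, 0.50 in replicate 3 and 0.61 in replicate 4. Over the same genes the mean of the other 3 knockout hearts gave 0.56, 0.57, 0.41 and 0.58. These are 4 different sets of genes (1538, 1363, 2709 and 797), chosen by the other hearts, so the 4 hearts are not ranked. The heart moved in the direction of the call for 98.5%, 97.9%, 85.0% and 99.9% of those genes. The median shift of replicate 3 was -0.71 over the lower genes and 0.34 over the higher ones. The heart lay beyond the mean of the other 3 for 17.7%, 15.1%, 57.9% and 53.3% of its genes. On the first principal component, 52.6% of the variance, the score of replicate 3 was -50.58, against -17.01 to -3.16 for the other knockout hearts and 17.95 to 21.92 for the wild type. The gap between 3′ and 5′ control probe sets of actin, a measure of RNA degradation, was 1.24 to 1.39 in knockout and 1.23 to 1.40 in wild-type hearts, with replicate 3 at 1.39.

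Probe sets not used for the calls gave another reading of the same genes, from the same RNA and arrays. Of 1820 other probe sets of called genes 80.7% had the sign of the call, against 64.5% of such probe sets over all genes. Among those at or above the median level the shares were 88.8% and 72.9%. The median ratio of their difference to that of the probe set used was 0.44 for called genes and 0.34 for all genes. At or above the median level it was 0.77 and 0.70. Among the 100 measured genes nearest to Tfrc in the reference order, 50 on each side, 8 were called (8.0%), beside 8.65% over all genes, and on its whole chromosome 60 of 598 (10.0%).

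At day 5 the same comparison, in other animals, called 64 genes (0.352% of those tested), 48 of which were among the day 10 calls and changed in the same direction, 12 higher and 36 lower. That is 75.0% of the day 5 calls and 3.05% of the day 10 calls. Of the genes called higher at day 10, 80.1% had a positive difference at day 5, and of those called lower 88.3% a negative one, against 60.7% with the same sign at both ages over all genes. The 48 included targets of hypoxia-inducible factor (Egln3 1.11 at day 5 and 1.90 at day 10, Ak4 0.99 and 1.83, Slc2a1 0.79 and 2.01, Bnip3 0.90 and 1.51) and the falls of Cabcoco1 (-1.73 and -3.60), Iigp1 (-1.58 and -2.60), Cubn (-0.86 and -1.29) and Casq1, the skeletal calcium store protein (-1.21 and -1.18). For Casq1, its call was lost without wild-type replicate 1, 3 or 4 or knockout replicate 1, 2 or 4 (adjusted p up to 0.0899) at day 10. None of the 29 integrated stress response genes was called at day 5 by limma. The 13 that rose at day 10 lay between -0.15 and 0.27 at day 5, with a median of 0.03 and 8 of them positive: Atf4 was at 0.09, Trib3 at 0.05, Asns at -0.13, Mthfd2 at 0.10 and Chac1 at -0.15.

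The difference between the ages was tested itself in a model of all 16 arrays, where 544 genes passed (2.99%); the ages appear to have been normalised apart, so a log2 unit need not be the same in both. Of the 30 genes with the largest day 10 changes 24 passed. The largest such differences were those of Nmrk2 (1.02 at day 5, difference 4.13, adjusted p = 5.16e-04) and Aqp4 (-0.83 at day 5, difference -3.03, adjusted p = 0.0343). For Ccn1, Ccn2, Egln3, Abra, Iigp1 and Asb5 the difference between ages did not pass (adjusted p = 0.0882 for Egln3). Tfrc itself was 1.01 at day 5, where it was called, and 0.38 at day 10, a difference of -0.64 that did not pass (adjusted p = 0.216).

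**Figure D5:**
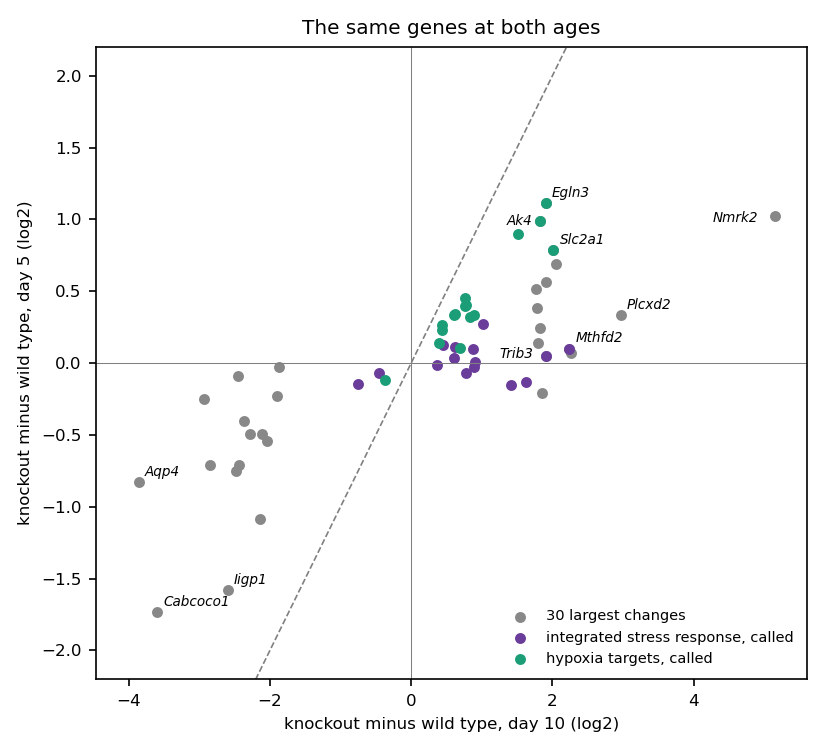
Knockout minus wild-type difference (log2) at day 10 (horizontal) against day 5 (vertical) for the 30 genes with the largest day 10 changes and for the called genes of the integrated stress response and hypoxia lists, with the line of equal differences dashed. Nmrk2 lies at 5.15 and 1.02, the integrated stress response genes called higher lie between -0.15 and 0.27 on the day 5 axis, and Egln3 and Ak4 lie near 1 on it.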

How the data were processed

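Total RNA of whole hearts was hybridised to Affymetrix Mouse430_2 arrays, 1 array per animal. The deposited values are log2 probe set signals; RMA and Partek 6.5 are named in the submitters' processing notes, and the settings are not given in the sources used here. Arrays of an age share nearly the same distribution and the ages differ in it, so the ages appear normalised apart. Groups were taken from array titles.

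The table holds 45101 probe sets, of which 34945 name 1 gene, 932 several and 9160 none listed here, beside 64 control probe sets. Names were checked against RefSeq (GRCm38.p6), where 34741 matched, and promoters came from the same table. The 8 day 10 arrays were fitted alone with limma 3.58.1 in R 4.3.3 (lmFit, eBayes), without filter or covariate, with Benjamini-Hochberg adjustment over all genes; every adjusted p printed comes from this tool. The number of arrays, 4 a group, limits the precision. The age difference was fitted over all 16 arrays with weights per age. The script was tested on simulated data.

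The comparison, its members and the gene lists were chosen with earlier results of these data known. Genes were named by rule: the 15 largest rises and falls among called genes with separate groups and a higher mean at or above the median; up to 8 called members by smallest p in main lists and up to 4 in others; and iron genes. Asns, Kdm3a, Ldha, Myh7, Pfkfb4, Plod1 and Sftpc, with the genes of the closing observations, were chosen after their values were seen. Alternatives were other normalisations, a filter on dim genes, other probe set rules, eBayes with trend, array weights, covariates, all 16 arrays and each array left out.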

Additional observations from a re-analysis of the deposited data

Results flagged for a closer look

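In groups of 4 arrays, a value was singled out where its gap to the nearest other array, as a share of the group's range, was above Dixon's critical value. Chance alone does this in about 1 in 20 groups, or 16.7 of the 334 groups of the 167 named genes, and 22 were found. Most of these genes were named for their calls, Sftpc after its value was seen, and all share the same arrays. The 22 beside 16.7 is therefore no test against chance. Knockout replicate 3 held 9 of them: Bex1 10.91, Cacna1c 8.26, Emcn 9.15, Irgm2 5.09, Kcnj14 4.69, Kdm3a 9.35, Mmp2 10.05, Myc 7.41 and Tfrc 11.19, all log2 levels apart from the other 3 knockout hearts. Wild-type replicate 3 held 6: Abra 7.07, Col8a1 8.0, Fbxl5 8.26, Gadd45g 7.13, Slc12a8 3.96 and the lung gene Sftpc 11.32. The remaining 7 were Aco1 at 10.02 and Tmod1 at 10.77 in knockout replicate 2, Tcap at 10.03 in knockout replicate 1, Slc27a1 at 8.0 in wild-type replicate 1, Slc38a4 at 8.75 in wild-type replicate 2, and Sars at 8.10 and Tpi1 at 11.85 in wild-type replicate 4.

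A difference between the ages in the knockout effect, tested as an interaction in limma, passed for 24 of the 30 genes with the largest day 10 changes. These genes were chosen for their size at day 10, which favours a larger value at that age. As day 10 effect minus day 5 effect on the log2 scale, the rises were larger at day 10 for Nmrk2 (4.13), Plcxd2 (2.63), P3h2 (2.19), Mthfd2 (2.14), Col8a1 (2.06), Trib3 (1.86), Cdkn1a (1.65), Gadd45g (1.58), Rasl11b (1.39), Slc2a1 (1.22) and Ak4 (0.84). The falls were larger for Aqp4 (-3.03), Asb15 (-2.68), Kcnd2 (-2.36), Rbfox1 (-2.14), Lrtm1 (-1.96), Cabcoco1 (-1.86), Hamp (-1.85), Gpr22 (-1.78), Tmod4 (-1.73), Pla2g5 (-1.72), Rpl3l (-1.66), Ky (-1.63) and Cmbl (-1.51).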

How the results depend on the processing

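The count of called genes was 1573, and stayed within 1.5 times of it under both normalisations (1734 quantile, 1674 cyclic loess), without dim genes (1793), with other probe set rules (1408 and 1570), with trend and robust eBayes (1637), with a Y-linked covariate (1163) and with tag neighbours as a block (1708). Array weights gave 2665 (1375 higher, 1290 lower) and all 16 arrays 3761 (1768 higher, 1993 lower). Leaving out 1 array in turn gave 674 to 2709 calls, 333 to 1432 higher and 337 to 1277 lower, and calls of at least 1 on the log2 scale from 138 to 264, against 208. Without knockout replicate 3 and wild-type replicate 3, an alternative chosen after seeing the data, 2005 genes were called, 1283 of them in common. Of the 1573 calls 780 were higher, and under cyclic loess 42.2% were.

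Of the 154 called genes named, 140 kept their call with the mean of a gene's probe sets, 135 with the Y-linked covariate and 118 to 153 when 1 array was left out. Direction turned for 1 uncalled gene, Ireb2, at -0.086 to 0.0017 when 1 array was left out (the latter without knockout replicate 3) and 0.0061 without both arrays. The 5′ Tfrc probe set gave -0.50 to -0.41 when 1 array was left out, with an adjusted p up to 0.0533. The age difference passed for 498 genes without age weights. No analysis was paired by replicate number, because those numbers follow accession order. Animals with neighbouring tag numbers, taken as a block, gave the 1708 calls above, 1381 of them in common with the 1573. Signal over background limits genes whose means lie near or under the array median, and 4 arrays a group limit the rest; the cause of these shifts was not tested.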

Other observations

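Gene families drawn from symbol patterns after the results above were seen add values on translation. Of 47 genes of eukaryotic initiation factors, with their kinases and binding proteins, 11 rose and none fell (23.4%, median difference 0.16 on the log2 scale, 40 positive). Eif2b3 and Eif2b5, subunits of the factor that reloads eIF2 with GTP, rose by 0.46 and 0.45, and Eif3d, a subunit of the factor that holds the small ribosomal subunit, by 0.47 (limma, adjusted p = 0.00405, 0.00635 and 0.00701, 4 arrays a group). Of 43 cytosolic ribosomal protein genes 6 rose and 1, Rpl3l, fell (16.3%), and 38 had positive differences with a median of 0.13. Rps19, of the small subunit, rose by 0.33 from 11.38 ± 0.05 to 11.71 ± 0.05 (SD, n = 4; adjusted p = 0.0115). The mitochondrial counterparts were more evenly spread, beside 8.65% called over all genes. Of 76 mitochondrial ribosomal protein genes 5 rose and 1 fell (7.89%, median -0.01), led by Mrps18b at 7.78, 7.86, 7.83 and 7.70 in wild-type and 8.85, 8.66, 9.42 and 8.84 in knockout replicates 1 to 4 (1.15, adjusted p = 0.00386), and of 16 mitochondrial aminoacyl-tRNA synthetase genes 1 rose and 1 fell (12.5%, median -0.04). None of 39 proteasome subunit genes and none of 38 olfactory receptor genes was called. At an unadjusted p under 0.05 in limma there were 6 and 0, beside 4466 of all 18193 genes tested.

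The ankyrin repeat and SOCS box family, substrate adaptors of cullin ubiquitin ligases, held 7 falls and no rise among 18 genes (38.9%, median -0.24). Beside Asb5 and Asb15, Asb2, which directs muscle filamins to degradation, was at 10.84, 10.93, 10.95 and 11.04 in wild-type and 10.16, 10.09, 9.90 and 9.95 in knockout hearts (-0.92, adjusted p = 8.34e-04). Of 84 potassium channel genes 6 fell and none rose (7.14%), beside 8.65% called over all genes and 4.36% called lower. Kcnj14, of an inward rectifier, was at 6.12, 6.44, 6.93 and 6.40 against 4.81, 4.81, 4.69 and 4.83 (-1.69, adjusted p = 0.00101), with the knockout hearts close together. Collagen genes held 1 rise and 1 fall among 42 (4.76%), under the share over all genes.

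Among genes called at both ages that belong to none of the lists above, Mif, a cytokine with tautomerase activity, was at 10.44, 10.57, 10.46 and 10.63 in wild-type and 12.11, 12.03, 12.42 and 12.24 in knockout hearts at day 10 (1.67, adjusted p = 9.81e-05), with 0.60 at day 5. Pdxp, the pyridoxal phosphatase, rose by 1.18 at day 10 and 0.69 at day 5, and Grhpr, which reduces glyoxylate, by 0.84 and 0.53. As3mt, an arsenic methyltransferase, fell by 1.84 and 0.92. The families and genes of this section were chosen after their values were seen, and the calls of the 11 genes named first here (Eif2b3 to As3mt) held under every alternative run.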
